A study of Drosophila melanogaster with 47 samples.

Results

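The comparison set 2 fly strains that carry different deletions in the regulatory DNA of *timeless* (*tim*) against each other, over the whole day and without the control strain. It used every library labelled tim_up122, 12 in all, and every library labelled tim_in24, 6 in all, which makes 18 of the 47 libraries of the series. The name tim_up122 stands for a CRISPR deletion of 122 bp upstream of the *tim* start site, made with a tandem pair of guides, which took out the upstream E-box together with the E-box-like motifs beside it. The name tim_in24 stands for a deletion of 24 bp inside a *tim* intron, made with a single guide, which took out the intronic E-box. Both strains were homozygous for their deletion and for the second chromosome that carries it, and each is a single line, so that a difference between them may come from the deletions or from anything else in which the lines differ, and these cannot be told apart. Flies of both sexes were kept in cycles of 12 h light and 12 h dark at 25 °C for 4 days, and heads were taken at zeitgeber times (ZT, hours after lights on) 2, 6, 10, 14, 18 and 22. At each time point there were 2 tim_up122 libraries and 1 tim_in24 library of polyadenylated RNA. The age of the flies and the number of heads in a library are not given in the sources used here.

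In the fly clock, the transcription factors CLK and CYC bind E-boxes and switch on *per*, *tim*, *vri* and *Pdp1*. The proteins PER and TIM accumulate at night, enter the nucleus together and shut CLK and CYC down, so that the same genes fall to a trough around dawn. VRI and PDP1 form a second loop that acts on *Clk*, whose mRNA cycles in the opposite phase. In a whole head, the photoreceptors and glia contribute far more of this RNA than the few clock neurons of the brain.

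The libraries held between 2551357 and 7861357 counted reads in tim_up122 (median 4962118.5) and between 3793649 and 6281309 in tim_in24 (median 4620016.5). Levels are given as CPM, the counts of a gene relative to the size of its library after TMM scaling. The markers of a head were high in both strains, with the 6 photoreceptor markers summing to at least 38120 CPM and the 4 neuronal markers to at least 2349 CPM, whereas the 7 ovary genes summed to at most 1.79 CPM and the 7 testis and accessory gland genes to at most 0.749 CPM, 2 of which were at 0 throughout. The yolk protein genes of females summed to 44160 to 74910 CPM in tim_up122 and to 44730 to 66890 CPM in tim_in24, and the male *roX* RNAs to 546 to 1211 and 422 to 1283 CPM, so the ranges of the sexes' markers overlapped. The tim_in24 library of ZT22 stood apart from the rest, because its long transcripts were low. Each gene's deviation from its mean over all 18 libraries was taken on the log2 scale, with the median in each of 5 length classes. The median of the longest class minus that of the shortest was -0.55 in the tim_in24 library of ZT22, against -0.12 to 0.12 in the other 17 libraries.

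The *tim* mRNA itself was lower in tim_up122 at all 6 time points. The gene spans 3493986 to 3508119 on the reverse strand of 2L (dm6). At ZT2 it measured 190 and 154 CPM in tim_up122 and 207 CPM in tim_in24. At ZT6 the values were 153 and 140 CPM against 327 CPM, and at ZT10 they were 319 and 301 CPM against 1106 CPM. The gap was widest at ZT10, when tim_up122 held 28.0% of the tim_in24 level. At ZT14, the peak in both strains, tim_up122 had 566 and 605 CPM and tim_in24 had 1414 CPM. At ZT18 the values were 560 and 499 CPM against 1101 CPM, and at ZT22 they were 365 and 364 CPM against 449 CPM. Around dawn the strains thus came close, with tim_up122 at 83.0% of tim_in24 at ZT2 and at 81.1% at ZT22. The value at ZT22 rests on the tim_in24 library whose long transcripts were low. Over the day the difference was -1.02 on the log2 scale (SE 0.14; adjusted p = 5.74e-05, edgeR quasi-likelihood F test with time point in the model, Benjamini-Hochberg adjustment over 9944 genes). Swapping the strain labels within time points in all 729 ways gave an exact two-sided permutation p of 0.00137, the smallest that this design allows. In a head, fewer *tim*-expressing cells and less *tim* RNA per cell cannot be told apart.

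*per*, which encodes the partner of TIM, differed from *tim* in its pattern. Its peak differed little, with 214 and 205 CPM in tim_up122 and 236 CPM in tim_in24 at ZT14, and 205 and 220 against 187 CPM at ZT10. The strains differed at its trough. At ZT2 *per* stood at 85.4 and 85.2 CPM in tim_up122 and at 22.3 CPM in tim_in24, and at ZT22 at 88.8 and 77.5 CPM against 33.8 CPM. At ZT6 the values were 99.97 and 142.7 CPM against 59.92 CPM, and at ZT18 they were 137 and 146 CPM against 99.7 CPM. The highest time point was 2.56 times the lowest in tim_up122 and 10.6 times the lowest in tim_in24. Averaged over the day, *per* was higher in tim_up122 by 0.67 (log2; SE 0.17; adjusted p = 0.0166; exact permutation p = 0.00686). *per* shares exon sequence with CG2650 on the other strand, as *cry* does with *vib*, and their reads cannot be told apart by strand. The call was lost without the tim_in24 library of ZT22 (0.55, adjusted p = 0.0660) and without that of ZT6 (0.60, adjusted p = 0.0508). Among 13 alternative fits that did not leave out a single library, 5 lost the call for *per*. The additive fit of all 47 libraries was among them (0.64, adjusted p = 0.132).

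*vri*, the repressor of *Clk*, showed the same shape. It measured 107 and 108 CPM in tim_up122 against 47.5 CPM in tim_in24 at ZT2, and 163 and 175 CPM against 84.5 CPM at ZT22, whereas the peak at ZT14 was 368 and 382 CPM against 393 CPM. Its daily mean did not pass the test (0.38, SE 0.14, adjusted p = 0.0821), although the exact permutation p, unadjusted, was 0.0274. *vri* was called in 3 of the 13 alternative fits. These used DESeq2 (adjusted p = 0.0375), 1 coefficient per strain and time point (0.000216) or no filter on low counts (2.11e-05). Leaving out the tim_in24 library of ZT10 (0.0108) or ZT14 (0.0427) also gave a call. *Pdp1*, the activator of *Clk*, was at 825 and 685 CPM against 374 CPM at ZT22 and at 595 and 514 CPM against 398 CPM at ZT2, and it differed little at ZT10, with 997 and 929 CPM against 970 CPM. Over the day *Pdp1* was higher in tim_up122 by 0.36 (SE 0.10, adjusted p = 0.0228). Without the tim_in24 library of ZT22 the difference in *Pdp1* was 0.24 (adjusted p = 0.0612), and without that of ZT2 it was 0.34 (adjusted p = 0.0655), so that 1 library decided this call too. The call for *Pdp1* was also lost in 3 of the 13 alternative fits, the additive one of all 47 libraries among them (0.34, adjusted p = 0.133).

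**Figure D1:**
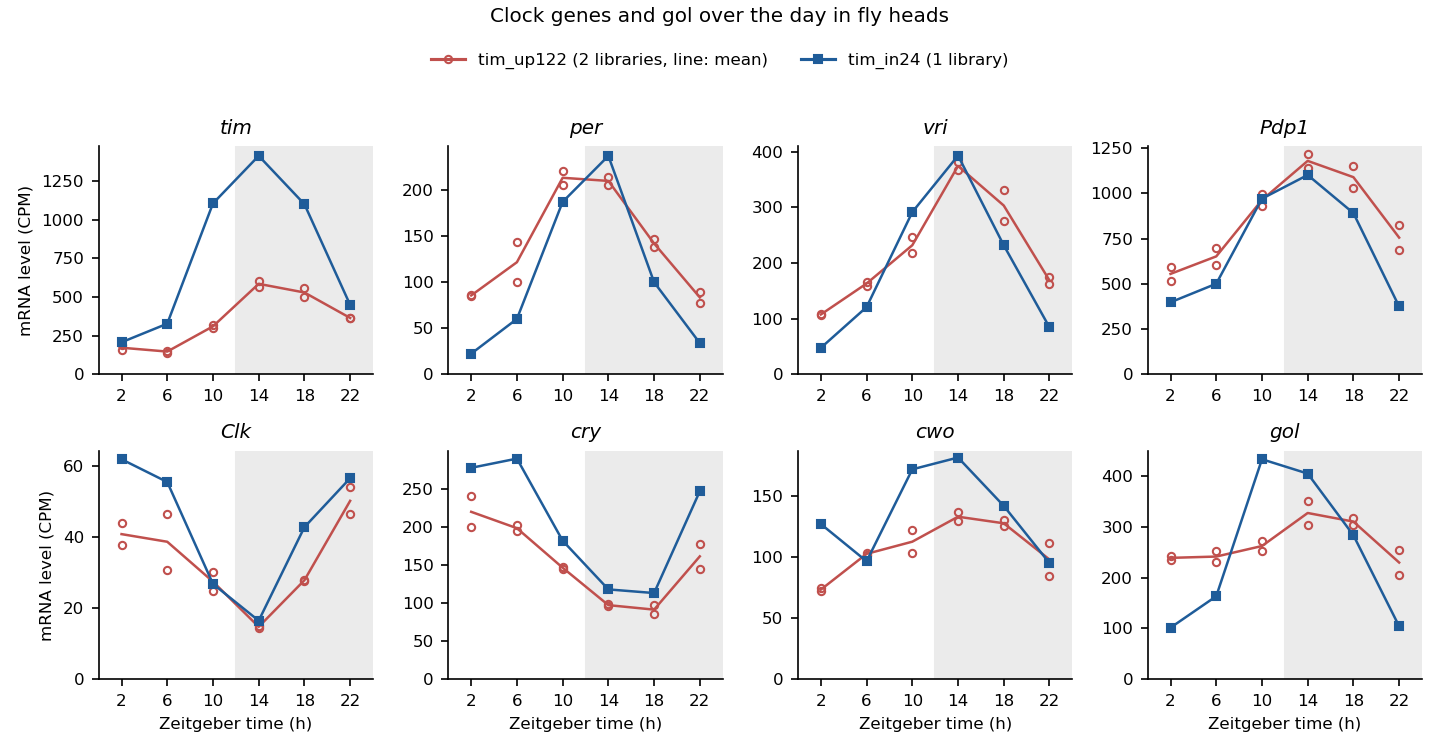
Levels of 7 clock genes and *gol* (y axes, CPM, from 0) against zeitgeber time (x axes, h; dark phase shaded). Open circles are the 2 tim_up122 libraries and the line their mean, and squares are the single tim_in24 library of each time point. The gap in *tim* is widest at ZT10 (310 against 1106 CPM), whereas those in *per* and *vri* are widest, as ratios, at ZT2 (85.3 against 22.3 CPM and 107 against 47.5 CPM).

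The genes of the opposite phase, *cry* and *Clk*, were lower in tim_up122. *cry*, which encodes the blue-light receptor that triggers TIM degradation, was below tim_in24 at every time point, with 199 and 240 CPM against 278 CPM at ZT2, 202 and 194 against 290 CPM at ZT6, and 145 and 147 against 182 CPM at ZT10. During the dark phase *cry* was at 95.5 and 98.8 CPM against 118 CPM (ZT14), 85.4 and 97.0 against 113 CPM (ZT18), and 144 and 178 against 247 CPM (ZT22). It fell by 0.40 over the day (SE 0.06, adjusted p = 0.00026; exact permutation p = 0.00137) and remained called without each of the 18 libraries in turn. *Clk* was lower by day and late at night, with 44.0 and 37.6 CPM against 61.9 CPM at ZT2 and 27.7 and 28.0 against 42.8 CPM at ZT18, but the strains overlapped at ZT10, with 30.2 and 24.7 against 26.8 CPM. Its difference of -0.37 (SE 0.10, adjusted p = 0.0185) missed the threshold without the tim_in24 library of ZT2 (adjusted p = 0.0741), ZT6 (0.0627) or ZT18 (0.0723). *Clk* also missed it in 4 of the 13 alternative fits, the additive one of all 47 libraries among them (-0.37, adjusted p = 0.1925). *cwo*, a repressor that competes for E-boxes, peaked at ZT14 in both strains, as *vri* and *Pdp1* did, but was lower too. Its difference was -0.32 (SE 0.09, adjusted p = 0.0342). The call for *cwo* was lost without 9 of the 18 libraries, with adjusted p-values up to 0.133, and in 4 of the 13 alternative fits. *cyc*, which does not cycle in flies, did not pass the test (37.1 against 37.4 CPM; -0.002, SE 0.07, adjusted p = 0.995), and CG31324 gave -0.03 (SE 0.11, adjusted p = 0.891).

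The shape of the daily curve was compared by fitting a cosine of 24 h to each strain. The amplitude is the distance from the daily mean to the peak of that curve on the log2 scale, and the test covers amplitude and phase together. In 6 of 9944 genes the curves differed at an adjusted p under 0.05 (0.0603% of genes; 886 at an unadjusted p under 0.05), and all 6 had the larger amplitude in tim_in24. They were *per* (amplitude 0.77 in tim_up122 and 1.73 in tim_in24, adjusted p = 0.000139), *gol* (0.249 and 1.204, adjusted p = 0.000367), *vri* (0.83 and 1.47, adjusted p = 0.0233), *tim* (1.05 and 1.44, adjusted p = 0.0366), *snoRNA:Or-CD16* (1.07 and 1.48, adjusted p = 0.0454) and CG46385 (0.14 and 0.75, adjusted p = 0.0485). The fitted peak of *tim* lay at ZT16.3 in tim_up122 and at ZT14.3 in tim_in24, and that of *vri* at ZT14.6 and ZT13.4. Permuting the labels within time points gave, for the amplitude alone, exact p-values of 0.0370 for *per*, 0.0192 for *vri* and 0.336 for *tim*. These are not adjusted for the 9 clock genes so tested, among which *cyc* had the smallest (0.0151, amplitudes 0.0528 and 0.232). Over all genes tested the median fitted amplitude was 0.12 in tim_up122 and 0.165 in tim_in24, which had fewer libraries.

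*gol*, which encodes the RING-finger ubiquitin ligase Goliath, was higher in tim_up122 at its trough, as *per* and *vri* were. Its peak was also lower, whereas theirs differed little. The gene varied little in tim_up122, although its rhythm there was called (adjusted p = 0.0291, edgeR quasi-likelihood F test). It ranged from 230 to 328 CPM across the time-point means of tim_up122 and from 102 to 434 CPM in tim_in24. At ZT2 it stood at 243 and 235 CPM against 102 CPM, and at ZT10 at 272 and 253 against 434 CPM, so that the curves of the strains crossed between ZT6 and ZT10 and again between ZT14 and ZT18. CG46385 was likewise above tim_in24 at ZT22 (206 and 199 against 144 CPM) and below it at ZT10 (212 and 206 against 450 CPM). Its ZT22 value rests on the tim_in24 library whose long transcripts were low. Without that library its rhythm missed the threshold (edgeR, adjusted p = 0.859), and CG46385 was called lower over the day (-0.40, adjusted p = 0.0299). *snoRNA:Or-CD16* lies within *tim* on the same strand (3504032 to 3504182) and overlaps its exons, so its counts are not separate from those of *tim*. The calls for *per* and *gol* held without each library in turn, while *vri* lost its call without 4 of the 18 libraries: the second tim_up122 library of ZT10 (adjusted p = 0.0699) or of ZT22 (0.0555), and the tim_in24 library of ZT10 (0.140) or of ZT22 (0.102). *tim* kept its call without 7 of the 18 libraries, CG46385 and *snoRNA:Or-CD16* without 6 each. Among 12 alternative fits that did not leave out a single library, the rhythm call was lost in 1 for *per*, 1 for *gol* and 4 for *vri*. In the fit of all 47 libraries *per* (adjusted p = 0.206) and *vri* (0.354) missed the threshold. With only the tim_up122 libraries numbered 2, *gol* and *vri* missed it.

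A rhythm was found in 820 genes of tim_up122 (8.25%) and in 225 genes of tim_in24 (2.26%), 153 of them in both (1.54%). The counts are not comparable, because tim_up122 had 12 libraries and tim_in24 had 6. Of the 9 core clock genes, 8 were rhythmic in tim_up122 and 7 in tim_in24.

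Over the day, 1126 of 9944 genes differed between the strains at an adjusted p under 0.05 (11.3%), 513 of them higher in tim_up122 (5.16%) and 613 lower (6.16%). At least 2-fold differences were found in 61 genes that were higher (0.613%) and 56 that were lower (0.563%). In 306 genes both tim_up122 libraries lay above the tim_in24 library at every time point (3.08%), and in 353 genes they lay below it (3.55%). The median over all genes was 0.009. Without the tim_in24 library of ZT22, 857 genes were called, of which 778 were among the 1126. Long genes were called higher more often, with 174 higher and 51 lower in the class of the longest genes (4166 to 71820 nt) and 61 higher and 124 lower in that of the shortest (34 to 1149 nt). The tim_in24 library of ZT22, whose long transcripts were low, was included in these counts, and its part in them was not tested.

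**Figure D2:**
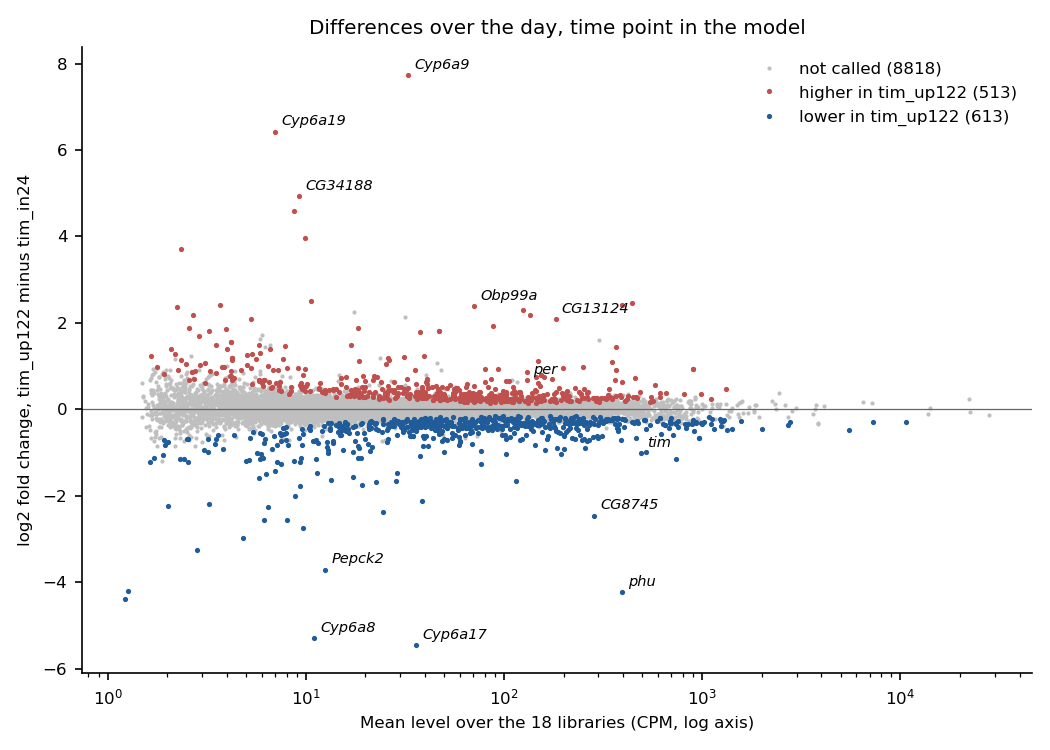
Each point is 1 of the 9944 genes tested, with its mean level over the 18 libraries (x axis, CPM, log scale) and its log2 fold change over the day (y axis, tim_up122 minus tim_in24). Red points are the 513 genes that were higher in tim_up122 and blue points the 613 that were lower. Genes of the *Cyp6a* family lie at both extremes, from 7.73 (*Cyp6a9*) to -5.45 (*Cyp6a17*), and *tim* lies at -1.02.

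The largest differences of all lay side by side in a cluster of cytochrome P450 genes on chromosome 2R (dm6, 14871366 to 14889010). Cytochrome P450s oxidise hormones and foreign compounds, *Cyp6a20* is known for an effect on male aggression and *Cyp6a17* for an effect on temperature preference. *Cyp6a9* ranged from 34.2 to 61.9 CPM (median 48.6) in tim_up122, whereas each tim_in24 library held 1 read of it. The pooled counts, 2951 against 6, gave a ratio of 241 (95% exact interval 111 to 657, counting error only). *Cyp6a19* ranged from 4.36 to 25.3 CPM in tim_up122 (median 9.92) and was at 0 in 4 of the 6 tim_in24 libraries, with 3 reads in all, a ratio of 108 (36.9 to 527). It overlaps *Cyp6a9* on the opposite strand, and counts from a kit that does not mark the strand cannot tell their reads apart.

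The neighbours moved in both directions. *Cyp6a20* ranged from 130 to 215 CPM in tim_up122 (median 173) and from 26.5 to 47.5 CPM in tim_in24 (2.29, SE 0.06, adjusted p = 6.12e-15). *Cyp6a23* ranged from 36.3 to 67.9 CPM against 10.6 to 18.1 CPM (1.79, SE 0.11, adjusted p = 1.09e-09). *Cyp6a17* went the other way, with 1.25 to 3.14 CPM in tim_up122 (median 2.23) and 83.4 to 148 CPM in tim_in24 (-5.45, SE 0.10, adjusted p = 2.72e-17). *Cyp6a8* was at 0 to 1.25 CPM in tim_up122 and at 25.4 to 40.4 CPM in tim_in24, and its pooled counts differed by a ratio of 40.7 (30.3 to 56.0). In these 6 genes no tim_up122 library overlapped a tim_in24 library, which was the case for 1.04% of genes in the upward and 1.12% in the downward direction. Within the same stretch, *Cyp6a22* (14.7 against 18.3 CPM, adjusted p = 0.124) and *Cyp6a21* (15.8 against 19.2 CPM, adjusted p = 0.290) did not pass the test. These genes are closely related copies, so reads may have been shared out among them during counting.

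**Figure D3:**
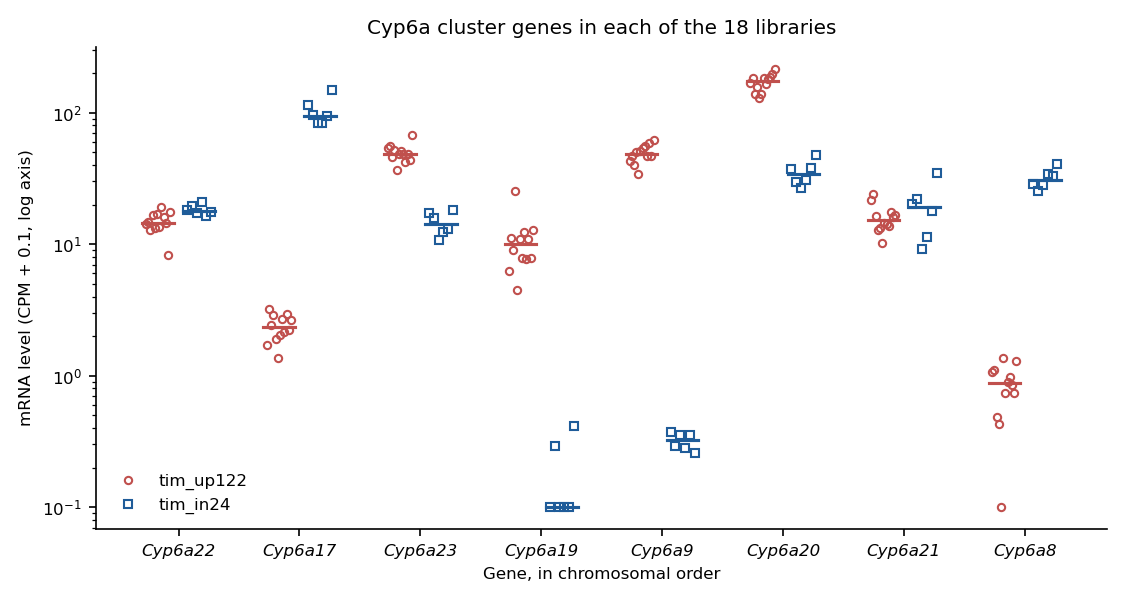
Levels of the 8 *Cyp6a* genes of the cluster, in their order along the chromosome (x axis), in each of the 18 libraries (y axis, CPM + 0.1, log scale). Circles are tim_up122, squares tim_in24 and bars the medians. *Cyp6a17* (2.23 against 94.6 CPM) and *Cyp6a8* (0.776 against 30.6 CPM) are lower in tim_up122, *Cyp6a23*, *Cyp6a19*, *Cyp6a9* and *Cyp6a20* are higher, and *Cyp6a22* and *Cyp6a21* overlap.

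The 12 largest increases in tim_up122 were taken among called genes with a mean of at least 5 CPM. Both tim_up122 libraries also had to lie above tim_in24 at all 6 time points. Of these 12 genes, 8 lay outside this cluster. CG34188 ranged from 10.4 to 17.5 CPM in tim_up122, and its tim_in24 libraries held 12 reads in all, a ratio of 33.1 (18.9 to 64.4). Also among these 8 were CG30083 (14.5 against 0.825 CPM on average), MFS15, a predicted transporter (21.6 against 7.60 CPM), CG42260 (117 against 31.4 CPM) and *asRNA:CR45185* (7.43 against 2.63 CPM). The last overlaps *Cht6* on the other strand and CG42260 overlaps *asRNA:CR30267*, so without strand these reads may belong to either gene. CG13124 was steady within each strain, with 226 to 268 CPM in tim_up122 and 55.4 to 59.4 CPM in tim_in24 (2.10, SE 0.05, adjusted p = 4.1e-15). *TotX*, a secreted stress peptide of the Turandot family, ranged from 6.07 to 40.4 CPM against 1.10 to 3.80 CPM (2.51, SE 0.46, adjusted p = 0.00123), so its groups did not overlap although its spread was wide. *Obp99a*, an odorant binding protein gene, ranged from 24.4 to 212 CPM in tim_up122 and from 3.79 to 31.2 CPM in tim_in24 (2.38, SE 0.41, adjusted p = 0.0007). Its ranges overlapped, although at each time point both tim_up122 libraries were above, as the choice of genes required.

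Of the 12 largest decreases, taken by the same rule with both tim_up122 libraries below tim_in24, *phu* was the most abundant. It ranged from 21.3 to 224 CPM in tim_up122 (median 38.9) and from 543 to 1392 CPM in tim_in24 (-4.23, SE 0.42, adjusted p = 1.36e-06). CG8745 ranged from 61.8 to 275 CPM (median 95.6) against 423 to 757 CPM (-2.46, SE 0.25, adjusted p = 1.66e-06). *Pepck2*, which encodes a phosphoenolpyruvate carboxykinase, ranged from 1.15 to 5.44 CPM against 20.2 to 54.7 CPM (-3.71, SE 0.14, adjusted p = 1.74e-12). Among the 12 decreases the ranges of the strains overlapped only in CG42329 and *lncRNA:CR45997*. Over all genes, 1.12% had no overlap in this direction, and the rule of choice favoured such genes. CG4927 averaged 3.31 against 22.5 CPM, CG11425 18.4 against 78.8 CPM, CG42329 9.71 against 53.8 CPM, CG31664 2.82 against 13.7 CPM, MFS3 4.61 against 17.3 CPM and *lncRNA:CR45997* 3.14 against 17.8 CPM. *Amy-p*, an amylase gene, averaged 2.28 against 14.01 CPM, while its near-identical copy *Amy-d* averaged 49.3 against 20.3 CPM (1.24, SE 0.16, adjusted p = 4.04e-05). The assignment of reads between the amylase copies is uncertain. All 24 of these genes remained called without each of the 18 libraries in turn.

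The levels of these 24 genes in the other 3 strains of the series were set beside those of the pair, as geometric means over libraries (of CPM + 0.5, less 0.5). For 5 genes none of yw, tim_up126 and tim_up10 was nearer to tim_up122 than to tim_in24, for 10 genes 1 of them was, for 5 genes 2 were and for 4 genes all 3 were. CG13124 belonged to the last kind, with 245 CPM in tim_up122, 265 in yw, 254 in tim_up126 and 253 in tim_up10, and 57.2 CPM in tim_in24. *Cyp6a20* belonged to the first kind, with 168 CPM in tim_up122 and 34.3, 16.4, 38.1 and 33.0 CPM in tim_in24, yw, tim_up126 and tim_up10. *Cyp6a8*, also of the first kind, was at 0.678 CPM in tim_up122 and between 20 and 31.9 CPM in the other strains. *Cyp6a17* and *Cyp6a9* split the strains otherwise. *Cyp6a17* was at 2.20 CPM in tim_up122 and 2.42 in yw against 101, 90.6 and 88.6 CPM in tim_in24, tim_up126 and tim_up10, whereas *Cyp6a9* was at 48.4 and 59.1 CPM in the first pair and at no more than 0.223 CPM in the rest. *phu* was at 48.2 CPM in tim_up122, 25.6 in yw and 53.8 in tim_up10, but at 371 CPM in tim_up126 and 1010 CPM in tim_in24.

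**Figure D4:**
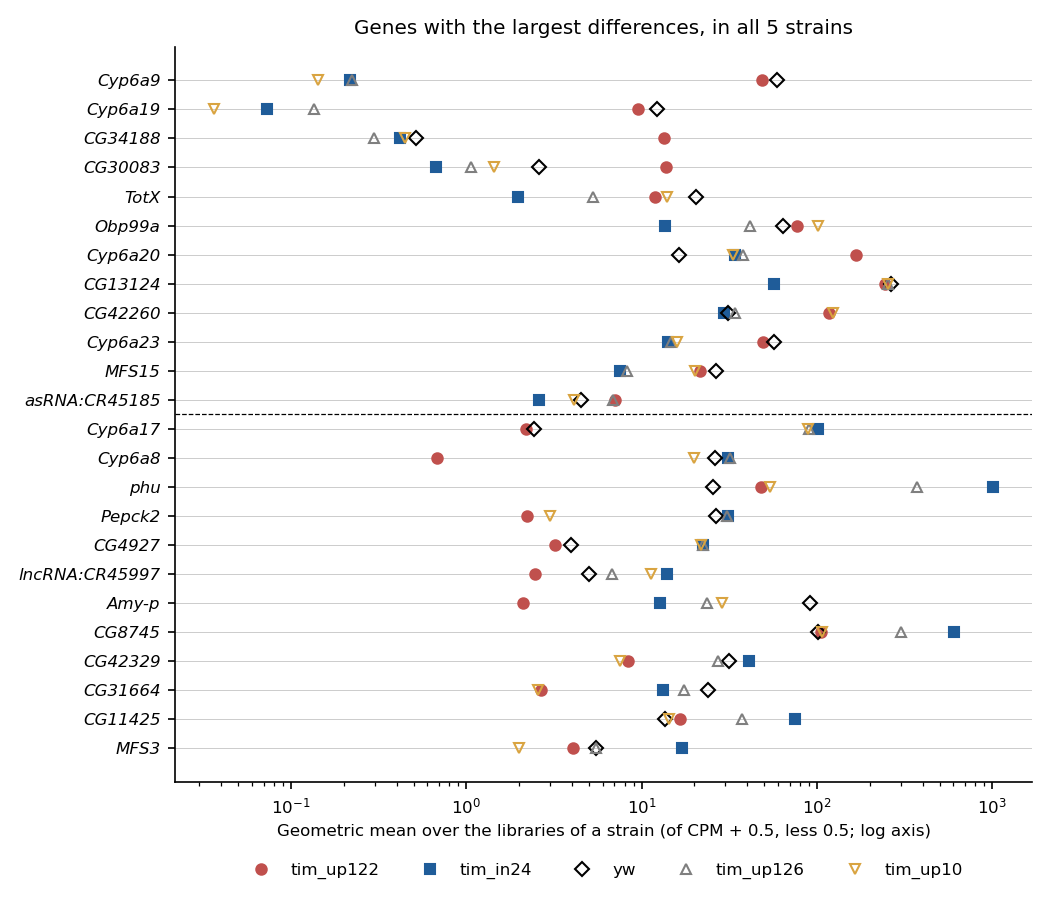
The 24 genes with the largest differences (y axis; above the dashed line those higher in tim_up122, below it those lower) and their level in each of the 5 strains (x axis, geometric mean, CPM, log scale). Only called genes with at least 5 CPM on average and both tim_up122 libraries on 1 side of tim_in24 at every time point were eligible. Filled symbols are the pair compared, open symbols the other strains. For CG13124 the value of tim_in24 (57.2 CPM) is away from the other strains, and for *Cyp6a8* that of tim_up122 (0.678 CPM).

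Of 14 genes for the kinases, phosphatases and degradation factors of PER and TIM, none passed the test in either direction, and their differences ran from -0.08 to 0.33. Here 3 had an unadjusted p under 0.05, DESeq2 called 2 higher, and up to 2 were called higher when each library was left out. The background for this and every list below is the 11.3% of all genes called, 5.16% higher and 6.16% lower. Of 17 genes for clock neuron peptides and clock output, 3 were higher and none lower. *ITP*, an ion transport peptide, rose from 91.6 to 123 CPM (0.42, SE 0.07, adjusted p = 0.000459). *sNPF* averaged 184 against 156 CPM (0.24, SE 0.05, adjusted p = 0.00618) and *Dh31* 79.2 against 66.6 CPM (0.25, SE 0.07, adjusted p = 0.0332). *Dh31* lost its call in 8 of the 18 fits without 1 library, that without the tim_in24 library of ZT22 among them (adjusted p = 0.0583). *Pdf*, the main signal of the clock neurons, was at 82.7 CPM in both strains (-0.01, SE 0.07, adjusted p = 0.947).

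Of 33 genes for phototransduction, 6 were lower and none higher, and the median was -0.03. Over all genes 6.16% were lower and 5.16% higher. *Rh2*, the opsin of the ocelli, ranged from 69.3 to 208 CPM in tim_up122 and from 250 to 366 CPM in tim_in24, without overlap (-0.91, SE 0.12, adjusted p = 6.72e-05). *inaD*, the scaffold of the signalling complex, gave -0.42 (SE 0.09, adjusted p = 0.00313), and the arrestin genes *Arr1* and *Arr2* gave -0.28 and -0.30. *Gbeta76C* and *rtp* were the other 2, and in the 18 fits without 1 library *rtp* was lost in 14 and *Arr1* in 3, both also without the tim_in24 library of ZT22. Without the tim_in24 library of ZT10 the count was 2 lower and none higher, and without that of ZT22 4 were lower and 1 higher. *Hdc*, which makes histamine, the transmitter of photoreceptors, was below tim_in24 at every time point (108 against 125 CPM; -0.23, SE 0.05, adjusted p = 0.00585). Of 13 neuronal genes only *fne* was called (0.26, adjusted p = 0.0422), and it was lost in 13 of the 18 fits that left out 1 library, with adjusted p-values up to 0.127. The neuronal list summed to 4215 CPM in the tim_in24 library of ZT22 and to 5602 to 7012 CPM in all other libraries. Of 15 glial genes 2, *Gs2* and *e*, were lower and none higher. No glial gene was called in 9 of the 18 fits without 1 library, that without the tim_in24 library of ZT22 among them, and without that of ZT2 there were 4.

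Of 16 muscle genes 10 were called, against 11.3% of all genes. This was the largest share of any list with at least 8 tested members after the core clock. The 8 that were lower encode actins, tropomyosins, troponins and myosin light chains, among them *Mlc2* (533 against 789 CPM; -0.57, SE 0.09, adjusted p = 0.000368), *Act57B* (1021 against 1421 CPM; -0.46, SE 0.10, adjusted p = 0.00377) and *up*, troponin T (336 against 460 CPM; -0.45, SE 0.08, adjusted p = 0.000915). The 2 that were higher encode the giant elastic proteins of the sarcomere, *bt* (446 against 294 CPM; 0.64, SE 0.10, adjusted p = 0.000461) and *sls* (528 against 407 CPM; 0.40, SE 0.09, adjusted p = 0.00877). Without the tim_in24 library of ZT22 the count was again 2 higher and 8 lower, with *bt* at 0.52 (adjusted p = 0.000723) and *sls* at 0.29 (adjusted p = 0.0222). The summed level of the list was 5232 to 6332 CPM in tim_up122 and 4754 to 7567 CPM in tim_in24.

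Of 26 cuticle protein genes 8 were lower, against 6.16% of all genes. None was higher and 18 did not pass the test, with a median of -0.33. *Cpr11B* averaged 5.16 against 12.2 CPM (-1.26, SE 0.13, adjusted p = 2.49e-06) and *Cpr62Bb* 16.6 against 28.5 CPM (-0.79, SE 0.10, adjusted p = 1.54e-05). The count stayed between 6 and 9 when each library was left out.

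Of 84 genes of the cytosolic ribosome 23 were lower, against 6.16% of all genes, none was higher and 61 did not pass the test. The median was -0.21, and 82 of the 84 values were negative. *RpL5* averaged 1259 against 1730 CPM (-0.46, SE 0.09, adjusted p = 0.00282). This count rested on single libraries. It was 6 without the tim_in24 library of ZT2, 9 without that of ZT22, 11 without that of ZT10, 13 without that of ZT18, 15 without the first tim_up122 library of ZT18 and 58 without the second tim_up122 library of ZT10. Taken alone, the 6 tim_up122 libraries numbered 1, which held a median of 3259439 reads, gave 56 lower, and the 6 numbered 2, with a median of 5818548 reads, gave 3. The part of depth in this was not tested. Of 62 respiratory chain and ATP synthase genes 17 were lower and none higher (median -0.15), and 3 to 22 were lower when single libraries were left out, the fewest without the tim_in24 library of ZT18 and 4 without that of ZT22. Of 73 mitochondrial ribosomal protein genes 2 were higher and 1 lower, but none was called without the tim_in24 library of ZT2 or without that of ZT14. Of 33 proteasome genes none was called by edgeR or DESeq2, and 5 had an unadjusted p under 0.05.

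**Figure D5:**
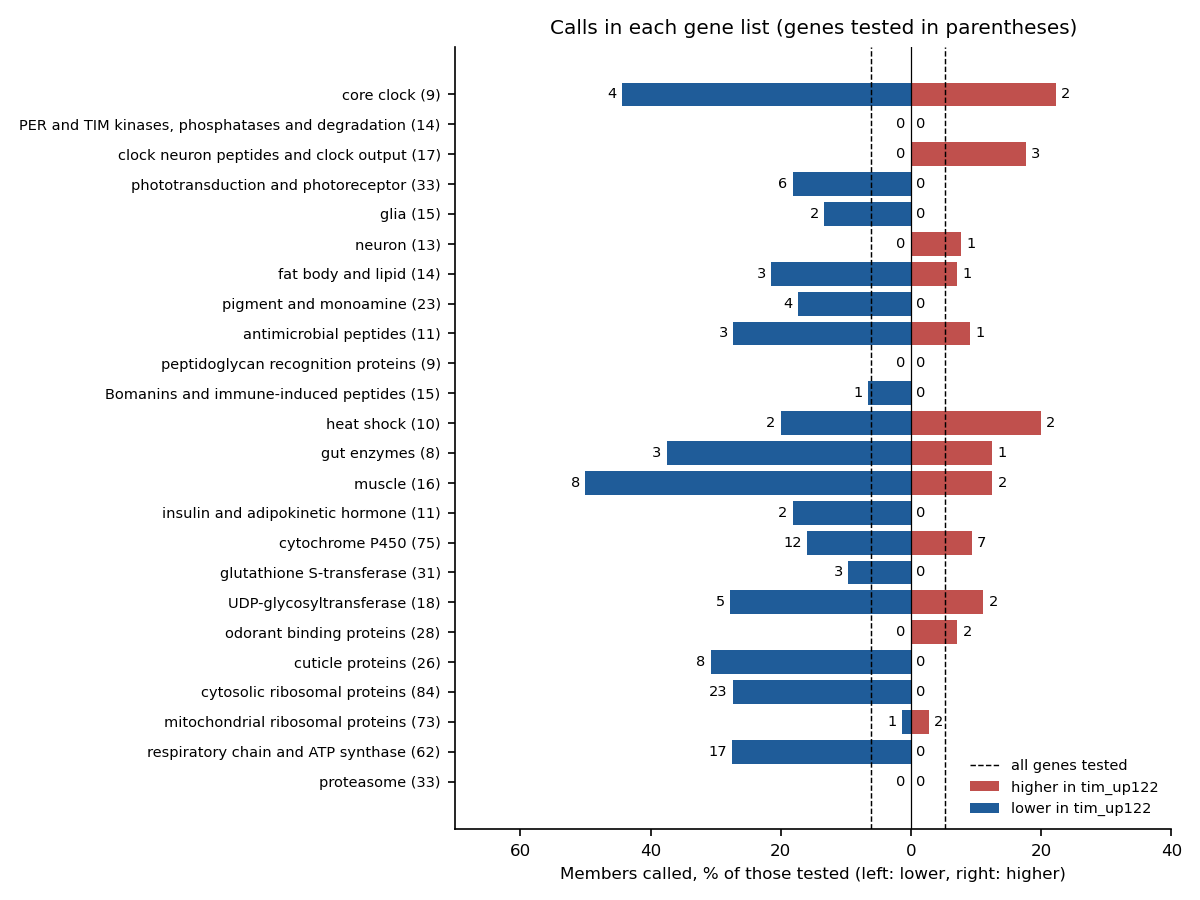
Share of the tested members of each gene list that were called lower (blue, to the left) or higher (red, to the right) in tim_up122 (x axis, % of members tested; lists with at least 8 tested members; counts beside the bars). Dashed lines mark the shares over all genes tested, 6.16% lower and 5.16% higher. Muscle (8 lower, 2 higher of 16) and the core clock (4 lower, 2 higher of 9) have the largest shares called.

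Stress and metabolic genes differed in a few members, beside the 11.3% of all genes called. Of 10 heat shock genes 2 were higher, *Hsp22* (65.1 against 10.5 CPM; 1.80, SE 0.37, adjusted p = 0.00335) and *Hsp23* (0.36, adjusted p = 0.0196), and 2 were lower, *Hsp68* (16.9 against 30.7 CPM; -0.88, SE 0.11, adjusted p = 1.79e-05) and *Hsp83* (-0.28, adjusted p = 0.0337). *Hsp83* was lost in 9 of the 18 fits without 1 library, that without the tim_in24 library of ZT22 among them (adjusted p = 0.0686). All 4 Turandot genes tested had positive values, from 1.60 to 2.51, and *TotX* and *TotC* were called. Their count was 1 to 3 when each library was left out and 3 without the tim_in24 library of ZT22, and *TotC* lost its call in 11 of the 18 fits. The summed level of the Turandot list in the tim_in24 library of ZT22, 454 CPM, was above the 64.2 to 148 CPM of the other tim_in24 libraries and within the 136 to 2224 CPM of tim_up122. *Lsd-1*, a perilipin of lipid droplets, was lower (215 against 358 CPM; -0.73, SE 0.10, adjusted p = 6.09e-05), as were *Lsd-2* (-0.41, adjusted p = 0.0181) and the fatty acid synthase *FASN1* (-0.45, adjusted p = 0.0295), whereas *Lsp2*, a larval serum protein, was higher with a wide spread (43 to 2256 CPM against 24.7 to 182 CPM; 2.45, SE 0.69, adjusted p = 0.0262). Without the tim_in24 library of ZT22 *Lsp2* gave 2.60 (adjusted p = 0.0510), and *Lsp2* and *FASN1* each lost the call in 5 of the 18 fits without 1 library. In the insulin and adipokinetic hormone list 2 of 11 genes were lower, the insulin-like peptide *Ilp3* (20.8 against 35.3 CPM; -0.77, SE 0.10, adjusted p = 4.17e-05) and the receptor *AkhR* (63.9 against 93.8 CPM; -0.55, SE 0.08, adjusted p = 9.57e-05), each at every time point. The maltase genes *Mal-B1* (-0.83, adjusted p = 0.00108) and *Mal-B2* (145 against 267 CPM; -0.89, SE 0.09, adjusted p = 1.36e-06) were lower too. Of 11 antimicrobial peptide genes tested, 3 were lower and 1 higher, while 8 of the 11 values were positive and the median was 0.81. That median was 1.68 with the tim_up122 libraries numbered 1 alone and -0.375 with those numbered 2. *Drsl4* (10.6 against 36.7 CPM; -1.74, SE 0.18, adjusted p = 3.27e-06) and *Drsl5* (-0.40, adjusted p = 0.00275) were lower, while *AttA* (-1.78), the third, and *AttB* (1.89), the higher gene, are near-identical copies and their opposite values are uncertain. *AttA* lost its call in 11 of the 18 fits without 1 library and *AttB* in 3, that without the tim_in24 library of ZT22 among them (adjusted p = 0.117).

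The calls were spread over all chromosome arms. On chromosome 2, which carries *tim*, 530 of 3829 genes were called (13.8%), and 69 differed at least 2-fold (1.8%). On chromosomes X, 3 and 4 together these were 594 of 6086 (9.76%) and 48 (0.789%). On chromosome 4, 28 of 90 genes were called (31.1%), 24 of them higher, and without the tim_in24 library of ZT22 there were 18 (20%), 14 of them higher. Next to *tim*, *Thor*, which encodes the translation inhibitor 4E-BP (223 against 241 CPM; -0.16, SE 0.15, adjusted p = 0.546), and CG15414 (14.7 against 14.1 CPM; 0.02, SE 0.16, adjusted p = 0.968) did not pass the test. *lncRNA:CR43928* on the same side and *lncRNA:CR45299*, CG31954 and *asRNA:CR45300*, which begin 479, 939 and 980 bp from the other end of *tim*, had too few reads to be tested. Within 500 kb of *tim*, leaving out *tim* itself but not the overlapping *snoRNA:Or-CD16*, 14 of 90 genes were called (15.6%), against 12.7% on 2L. The largest of these were CG31776 (5.04 against 0.996 CPM; 2.42, SE 0.35, adjusted p = 0.000125) and *Pgant4* (3.06 against 0.580 CPM; 2.37, SE 0.40, adjusted p = 0.000646), whose ends lie 21622 and 18648 bp from *tim* and which were higher at every time point. In the tim_in24 libraries 3 reads correspond to 0.475 to 0.814 CPM. Both genes thus had few reads in that strain, and the sizes of their differences are uncertain.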

How the data were processed

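RNA of fly heads was sequenced from TruSeq libraries. The count table deposited by the authors holds whole-number read counts per gene, made with STAR and featureCounts on dm6 per the series text, while the published methods name Tophat and ESAT. Tool versions are not given in the sources used here. A second table of normalized values was not used. Libraries were grouped by their labels. The series text and the published study call the replicate libraries of tim_up122 biological replicates. tim_in24 had no replicate at a time point, so p-values rest on the spread between tim_up122 replicates and around the additive or harmonic fit.

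Genes with enough counts in at least as many libraries as the smaller strain had were kept (filterByExpr), leaving 9944 of 17137. These libraries could be of either strain, so a gene could pass through tim_up122 alone. Of the genes kept, 9915 matched an annotation on dm6 coordinates (Ensembl BDGP6.54). Counts were TMM scaled and tested with edgeR 4.0.16 (R 4.3.3) by its quasi-likelihood F test, with strain and time point as additive terms, or with a cosine and sine of a 24 h period per strain. Differences are log2 values, tim_up122 minus tim_in24, and an adjusted p under 0.05 was called. For the clock genes the strain labels were also permuted within time points (log2 CPM, prior count 2). DESeq2 1.42.0, other scalings, filters and designs, and leaving out each library were tried as alternatives.

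The text names the core clock genes, the 12 genes with the largest increases and the 12 with the largest decreases among those called, with a mean of at least 5 CPM and both tim_up122 libraries on 1 side of tim_in24 at all 6 time points, the genes that differed in rhythm, the neighbours of *tim*, and called members of gene lists, largest change first. CG31776, *Pgant4* and *Amy-d* were named after their values were seen, as were list members named with values that missed the threshold. The comparison, the genes and the 28 gene lists were chosen with earlier results of these data known. Lists are described by counts and medians without a set test. Ratios of pooled counts have Clopper-Pearson intervals at 95%. Replicate libraries differed by more than sampling noise (chi-square per degree of freedom 5.20 to 10.8 in the 6 tim_up122 pairs), so none was counted as a duplicate. No sequence is printed, because none of the deletions was read from the files used here.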

Additional observations from a re-analysis of the deposited data

Results flagged for a closer look

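In 6 genes the daily curve differed between tim_up122 and tim_in24 by the test of the difference itself. The amplitude in tim_up122 minus that in tim_in24, on the log2 scale, was -0.96 for *per*, -0.95 for *gol*, -0.63 for *vri*, -0.60 for CG46385, -0.41 for *snoRNA:Or-CD16* and -0.39 for *tim*. All 6 values were negative. The median amplitude over all genes was also lower in tim_up122 (0.12 against 0.165), and tim_in24 had fewer libraries. A test for a single outlying library was not applied, because a strain had at most 2 libraries at a time point.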

How the results depend on the processing

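tim over the day kept its direction and its call under every alternative tried, and ranged from -1.16 to -0.84 when each library was left out. The count of genes that differed over the day was 814 to 1208 when each library was left out and 554 with only the tim_up122 libraries numbered 2, and it split into 648 higher and 494 lower when counts were scaled by library totals (against 513 and 613). The count of genes that differed in rhythm was 2 to 87 when each library was left out, 87 being the count without the tim_in24 library of ZT2. It was 23 with DESeq2 (4 of them with the larger amplitude in tim_up122), 23 with time point as a factor (3), 395 without a filter (165), 2 with only the tim_up122 libraries numbered 1, 1 with only those numbered 2, 2 in a fit of all 47 libraries, and 2 without the ZT22 libraries, an alternative chosen after seeing the data. The rhythm of *tim*, by the joint test of amplitude and phase, missed the threshold with the libraries numbered 1 (amplitude difference -0.44, adjusted p = 0.410), with those numbered 2 (-0.33, adjusted p = 0.497), in the fit of all 47 libraries (-0.39, adjusted p = 0.339) and without the ZT22 libraries (-0.45, adjusted p = 0.301), and ranged from -0.54 to -0.30 when each library was left out. The causes of these shifts were not tested, and the fits that left libraries out also rested on fewer of them.

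The labels do not say what a replicate number marks, and tim_in24 has only libraries numbered 1, so the number of a library could be compared within tim_up122 alone. A replicate block in the model gave 1452 genes over the day, 922 of them among the 1126, a difference of -0.97 for *tim* and 4 genes in rhythm, and *Clk* (-0.25, adjusted p = 0.120) and *cwo* (-0.31, adjusted p = 0.0805) were no longer called. Deviations of the tim_up122 libraries numbered 1 correlated between time points at 0.0078 to 0.296.

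The sign changed only in values near 0. The difference of *cyc* was 0.00293 with median-of-ratios factors, 0.0254 with library totals, 0.00277 with DESeq2, 0.000233 with a filter at 5 CPM, 0.0166 with the libraries numbered 2, 0.00526 and 0.00638 with 1 coefficient per strain and time point in the 18 and in all 47 libraries, and 0.0162 without ZT22. The amplitude difference of *cwo* was 0.0452 with the libraries numbered 2 and 0.0445 without ZT22. When each library was left out, values ran from -0.034 to 0.064 for *cyc*, -0.124 to 0.0938 for CG31324, -0.171 to 0.131 for CG15414 and -0.247 to 0.0227 for *Thor* over the day, and from -0.277 to 0.0309 for *cwo*, -0.308 to 0.0585 for *Clk* and -0.303 to 0.0508 for CG31324 in amplitude. Of 864 values of named genes when each library was left out, 795 kept direction and side of the threshold, 44 lost the call, 3 gained it and 22 changed sign. With 2 tim_up122 libraries and 1 tim_in24 library per time point, depth and the single tim_in24 libraries limit what can be said about 1 time point.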

Other observations

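Further gene families held called members, beside 5.16% of all genes called higher and 6.16% called lower. Of 75 cytochrome P450 genes tested, 7 were higher and 12 lower, and without the tim_in24 library of ZT22 these were 6 and 7. Outside the *Cyp6a* cluster the largest was *Cyp305a1* (32.4 against 59.2 CPM; -0.84, SE 0.16, adjusted p = 0.00156, edgeR), followed by *Cyp4e3* (29.7 against 44.8 CPM; -0.62, SE 0.11, adjusted p = 0.00105). Of 18 UDP-glycosyltransferase genes 2 were higher, *Ugt37B1* (5.27 against 1.35 CPM; 1.86, SE 0.42, adjusted p = 0.00604) and *Ugt37A3* (4.31 against 1.11 CPM; 1.81, SE 0.41, adjusted p = 0.0068), and 5 were lower. Of 31 glutathione S-transferase genes 3 were lower and none higher (1 to 4 when each library was left out, and 1 without the tim_in24 library of ZT22), among them *GstE12* (273 against 352 CPM; -0.37, SE 0.07, adjusted p = 0.000937). Of 28 odorant binding protein genes 2 were higher, *Obp99a* and *Obp49a* (158 against 116 CPM; 0.45, SE 0.09, adjusted p = 0.00219).

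Of 23 pigment and monoamine genes 4 were lower and none higher (2 to 6 lower when each library was left out), among them *se*, an enzyme of eye pigment synthesis (58.3 against 76.2 CPM; -0.41, SE 0.08, adjusted p = 0.00185). The share called lower over all genes was 6.16%. The markers of the yw background, *y* and *w*, had too few reads to be tested, with at most 1.28 CPM and 5.01 CPM in any library. Of 15 Bomanin and immune-induced peptide genes only *IM14* was called (48.5 against 81.4 CPM; -0.83, SE 0.17, adjusted p = 0.00264), and without the first tim_up122 library of ZT18 there were 4. Of 9 peptidoglycan recognition protein genes none was called by edgeR or DESeq2, 4 had an unadjusted p under 0.05, and up to 2 were called when each library was left out. Of 4 female genes tested, *fit* was higher (312 against 131 CPM; 0.97, SE 0.28, adjusted p = 0.0322) and lost its call in 8 of the 18 fits without 1 library (adjusted p up to 0.101), while *Yp1*, *Yp2* and *Yp3* gave -0.05, 0.04 and 0.25 with adjusted p-values of 0.813, 0.890 and 0.253. The male RNAs *lncRNA:roX1* and *lncRNA:roX2* gave 0.23 and 0.26 (adjusted p = 0.417 and 0.482).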
